A study of Bos taurus with 6 samples.

Results

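Genes for pre-mRNA splicing factors were followed in cultured bovine granulosa cells before and after fibroblast growth factor 8 (FGF8). A gene was a member if its symbol in the array's annotation began with SRSF, SFRS, HNRNP, HNRP, SF3A, SF3B, PRPF or SNRP, or was CLK1 to CLK4, U2AF1, U2AF2, CCNL1, CCNL2, TRA2A, TRA2B or RBM39. The rule used names only and no measured value, but the group itself was chosen with earlier results of these data known. It found 140 probes for 75 genes, among 43794 probes of which 21790 carried a gene name, for 15216 genes in all. No probe carried the names CCNL1 or CLK2. Several names on the array are old, and current symbols are used here: SREK1 is SFRS12, SCAF11 is SFRS2IP, SFSWAP is SFRS8, CLASRP is SFRS16 and SF3B6 is SF3B14 in the annotation.

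Splicing removes introns from a new transcript and joins its exons. The spliceosome does this with small nuclear ribonucleoproteins (snRNPs), most of them an RNA held by a ring of Sm proteins. The U1 snRNP reads the start of the intron, and U2AF and the SF3A and SF3B proteins place the U2 snRNP on the branch point near its end. SR proteins bind exons and mostly favour their inclusion, hnRNP proteins bind exons and introns and often oppose it, and CLK kinases phosphorylate SR proteins. Many of these genes splice their own transcripts in alternative ways, so a probe can read some isoforms and not others. Granulosa cells surround the oocyte in the ovarian follicle, and FGF8 is a growth factor that acts on receptor tyrosine kinases and that, in mice, the oocyte makes.

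The cells came from Holstein follicles of 2 to 6 mm and grew for 5 days without serum, with follicle stimulating hormone and insulin at 10 ng/ml each, in both groups. Treated cells received FGF8 at 10 ng/ml for 2 h, and control cells were untreated and labelled 0 h, so the time that passed and the handling cannot be told apart from FGF8. The series names 3 biological replicates, and the sources used here do not say whether these were separate animals or cultures. RNA was amplified with T7 polymerase, labelled with Cy3 or Cy5, and each replicate was hybridised to 2 arrays with the dyes exchanged, 6 arrays in all. All values below are log2 ratios of treated over control unless stated otherwise. The mean of the 2 dye-exchanged arrays is the value of a replicate, and each mean over replicates has its SD with n = 3. The probe sequences were not used here, so signal shared between close relatives such as HNRNPH1 and HNRNPH2, or with processed copies elsewhere in the genome, was not tested.

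Array medians lay between 108 and 192 intensity units and those of the negative control spots between 73 and 140. Between 58.1% and 65.4% of all probes exceeded the 95th percentile of the negative controls. In the granulosa list 13 of 15 markers passed the background filter, with FOXL2 and HSD17B1 below it. The 13 genes had a summed normalized intensity of 112927 to 142435 units in treated and 116294 to 139590 in control RNA. Single genes differed widely, from an average log2 intensity of 15.6 for INHBA to 7.0 for ESR2. FSHR (7.8), AMH (7.7) and NR5A1 (7.3) were also dim. The theca and stroma list passed with 11 of 14 genes, with 90723 to 94016 units in treated and 86198 to 99215 in control RNA. CYP17A1, LHCGR and TAGLN did not pass. The other lists were dim: 8 of 10 endothelial genes summed to at most 1227 units in either RNA, 6 of 12 leukocyte and blood genes to at most 3693, and 3 of 7 oocyte genes to at most 422. No gene of these 5 lists passed the adjusted threshold.

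The splicing factors were detected more often than the array as a whole. Of their 140 probes 122 passed the background filter (87.1%), against 27210 of 43651 probes overall (62.3%). These probes stand for 73 genes, and 68 of them were above background in both RNAs on every array. The genes that did not pass were PRPF40B, above background on 0 of 6 arrays in either RNA, and SF3B4, a subunit of the SF3B complex, above it on 3 arrays in treated and 2 in control RNA. Where a gene had several probes, the brightest stood for it.

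No splicing factor passed the test after 2 h of FGF8. In limma with Benjamini-Hochberg adjustment over 27210 probes, 1 probe was called (0.00368%), one that stood for no gene. Of 11190 genes 0 were called. The smallest adjusted p among the members was 0.86. At an unadjusted p under 0.05, 7 member genes were higher in treated cells, 9.59% of them against 3.17% of all genes. Only SREK1 was lower, 1.37% against 2.46% of all genes. The 7 were SRSF6, HNRNPDL, HNRNPH2, HNRNPR, SF3B3, SNRPC and CCNL2. These 8 genes were above background in both RNAs on all 6 arrays. Without replicate 3 the count was 1, PRPF19, which is none of these 8 (1.37%, against 4.49% of all genes), and without replicate 1 it was 5 (6.85%, against 6.16%). In bulk RNA, fewer cells of a type and less RNA per cell cannot be told apart. The values that follow describe the genes, and none of them is a called change.

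As a group the member genes lay slightly above the array, by a small amount that came mostly from replicate 1. Their median log2 ratio was 0.11, against 0.0052 over all genes, and 48 of 73 were higher on average (65.8%, against 51.2% of all genes). Replicate 1 had a group median of 0.23, replicate 2 of -0.028 and replicate 3 of 0.024, while that of all genes was -0.0096, -0.0013 and 0.021. In the same order 55, 35 and 37 of the 73 genes were higher, against 5463, 5563 and 5866 of all 11190 genes. Without replicate 1 the median was 0.063, against 0.0097 over all genes, and 41 genes were higher (56.2%, against 51.9% of all genes). The granulosa markers also stood high in replicate 1: their median was 0.57 there and -0.10 and -0.12 in replicates 2 and 3, and their part in the splicing factor values was not tested. When each array was centred on its median in place of the loess correction, 59 of the 73 genes were higher (80.8%), and at an unadjusted p under 0.05 the split was 11 higher and 0 lower. That centring also moved the whole array: 57.1% of all genes were then higher, their median was 0.037, and 5.85% were higher and 1.23% lower at that p. The authors' deposited table gave a median of 0.11 for the same genes, but it comes from the same scans and is no independent check.

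**Figure D1:**
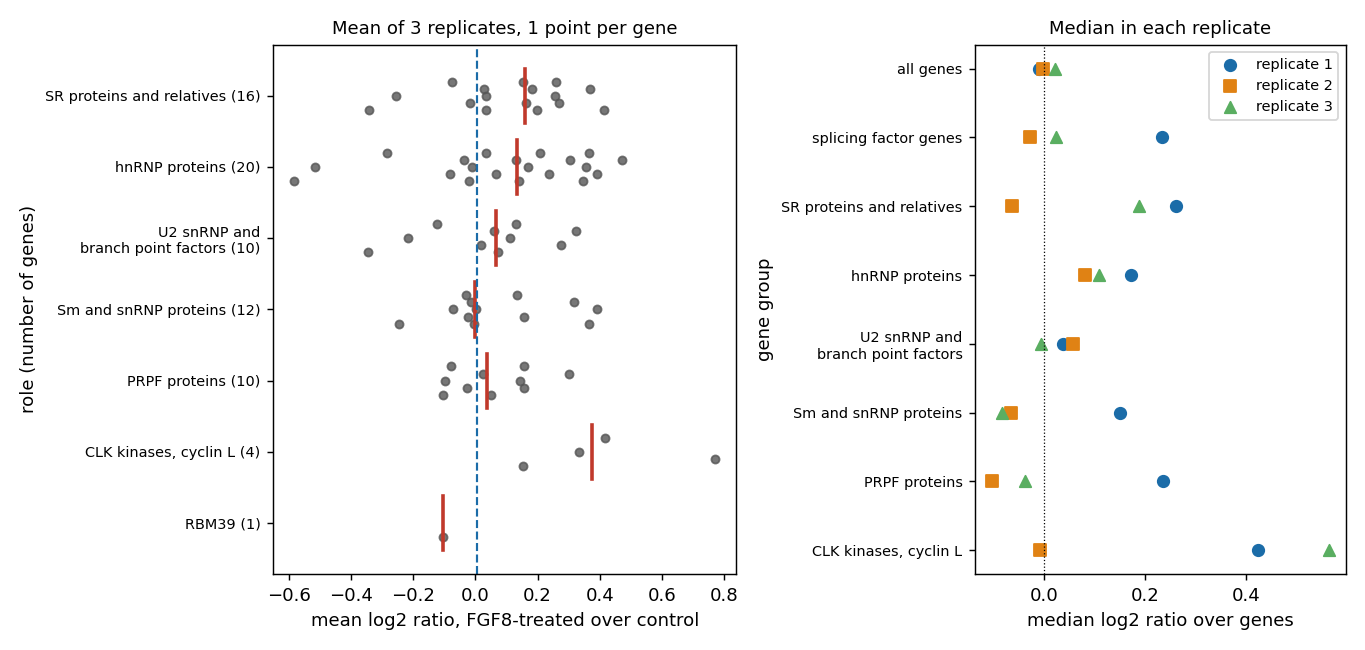
Left, the mean log2 ratio of treated over control over 3 replicates on the horizontal axis, with 1 point per gene and 1 row per role; red lines are role medians and the dashed line is the median of all 11190 genes. Right, the median log2 ratio over the genes of each group in each replicate. The splicing factors as a group stand at 0.23 in replicate 1 and between -0.028 and 0.024 in the others.

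Few genes held their sign across replicates, and no more than on the array as a whole. Of the 73 genes, 17 had the same sign in all 3 replicates (14 higher and 3 lower, 23.3% in all), against 26.3% of all genes. The share over all genes was not split by direction. On all 6 arrays 4 genes were higher, 5.48% against 3.44% of all genes. These were CCNL2, SRSF6, HNRNPR and SF3B3. SREK1 alone was lower on all 6 (1.37%, against 2.53% of all genes). The single sign was lost for HNRNPR and SF3B3 with the mean in place of the median foreground, for SRSF6 with median centring, and for CCNL2 and SRSF6 with the mean of all kept probes of a gene. Over the 73 genes, a description across genes that share arrays, the values of the 2 dye-exchanged arrays correlated with r = 0.58 in replicate 1, 0.016 in replicate 2 and 0.69 in replicate 3. Between replicates r was -0.21 for 1 and 2, 0.15 for 1 and 3, and 0.12 for 2 and 3.

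**Figure D2:**
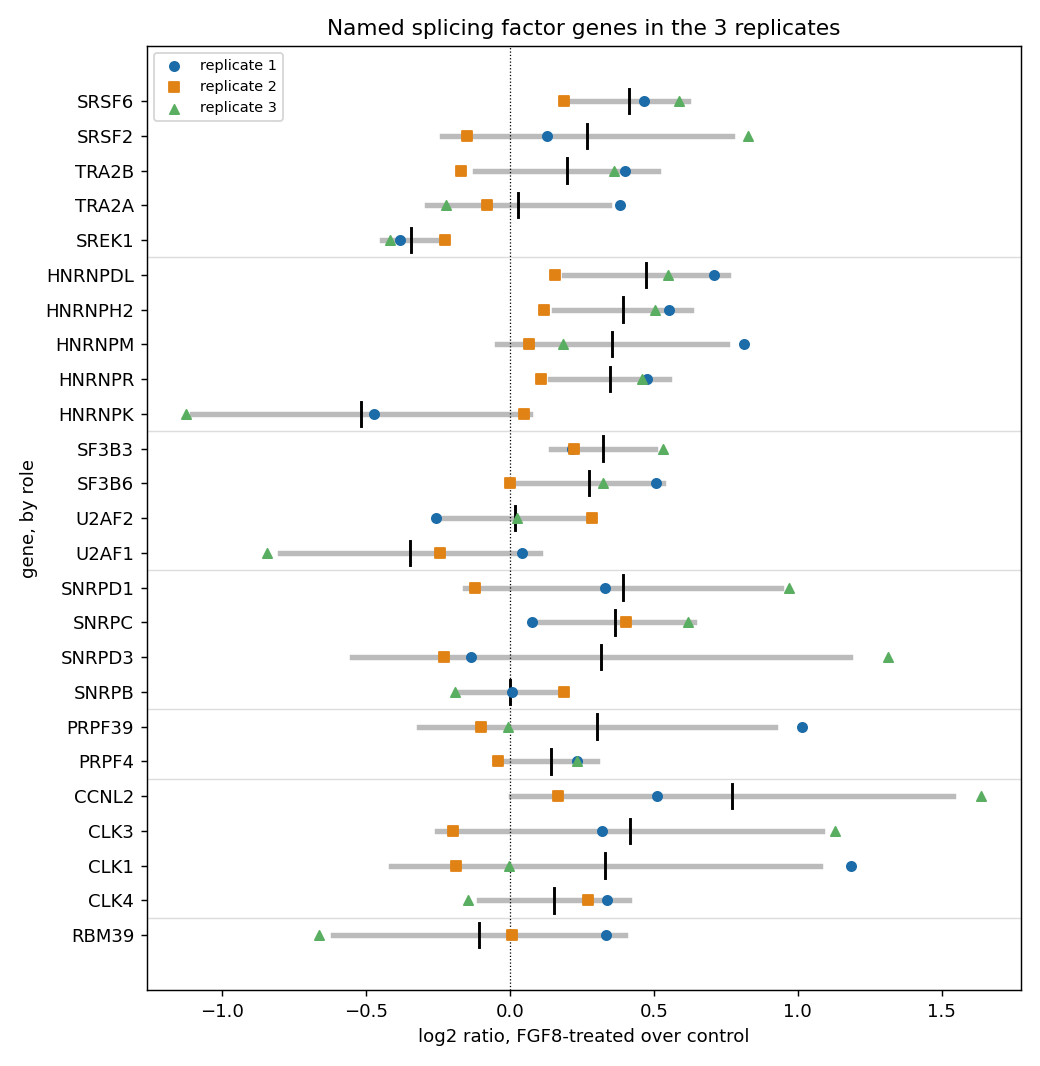
The log2 ratio of treated over control on the horizontal axis for the 25 named splicing factor genes, grouped by role; points are the 3 replicates, black ticks the mean and grey bars the mean plus and minus 1 SD. SRSF6 and SREK1 keep all 3 points on one side of 0, as do CCNL2, HNRNPDL, HNRNPH2, HNRNPM, HNRNPR, SF3B3 and SNRPC. CLK1, PRPF39 and SNRPD3 each have 1 replicate far from the others.

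The kinases that phosphorylate SR proteins and the cyclin that works beside them had the highest median of any role, 0.37 over 4 genes, and also the largest median SD over replicates, 0.71. CCNL2 encodes cyclin L2, a nuclear speckle protein that partners cyclin-dependent kinases in splicing. Its values were 0.54 and 0.48 on the arrays of replicate 1, 0.13 and 0.21 in replicate 2, and 1.31 and 1.96 in replicate 3. All 6 arrays were higher, with replicate 3 far above the others. The mean was 0.77 ± 0.77 (SD, n = 3), a 1.71-fold difference, with an unadjusted limma p of 0.03. CCNL2 was the only member beyond 1.5-fold, as were 190 of all 11190 genes. The dimmer CCNL2 probe read 0.48, -0.11 and 0.41 in the 3 replicates, a mean of 0.26.

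The CLK genes stood high in different replicates. CLK1 read 1.19, -0.19 and -0.002 in the 3 replicates, so that its mean of 0.33 ± 0.74 (SD) rested on 1 replicate. Without replicate 1 its mean was below 0. CLK3 was 0.32, -0.20 and 1.13, highest in replicate 3 where CLK1 lay near 0. Even the brightest CLK3 probe was dim, with raw intensities of 154 to 353 units. CLK4 was 0.34, 0.27 and -0.14. Each of the 3 kinases had 1 dimmer kept probe with a mean between -0.05 and -0.01, on the other side of 0 from its brightest probe. These 3 probes lay near the negative controls, with raw intensities of 78 to 226 units. The remaining kept probes, also near the negative controls, averaged 0.13 for CLK1 and 0.05 for CLK3.

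Among the 16 SR proteins and relatives 12 were higher on average, with a role median of 0.16 and a range of -0.34 to 0.41. SRSF6 encodes an SR protein that binds exonic enhancers. It read 0.47 on both arrays of replicate 1, 0.18 and 0.19 in replicate 2, and 0.46 and 0.72 in replicate 3. These 6 values lay on one side of 0 with a mean of 0.41 ± 0.21 (SD, n = 3), a 1.33-fold difference with an unadjusted limma p of 0.022. SRSF6 also had 4 probes, and all 4 were higher on average, from 0.15 to 0.44. In contrast, SRSF2, the SR protein of which 4 probes were also kept, had values of 0.13, -0.15 and 0.83, and its probe means ran from -0.01 to 0.58. TRA2A and TRA2B, vertebrate relatives of the fly splicing regulator transformer-2, averaged 0.03 ± 0.32 and 0.20 ± 0.32 (SD), with replicate 2 below 0 for both. The 3 kept probes of TRA2B ran from -0.19 to 0.20.

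SREK1 encodes an SR-related protein that modulates the activity of other SR proteins. Its values were -0.62 and -0.15 on the arrays of replicate 1, -0.25 and -0.20 in replicate 2, and -0.51 and -0.32 in replicate 3. No array was higher, and the replicates lay closer together than those of the other named genes. The mean was -0.34 ± 0.10 (SD, n = 3), 1.27-fold lower, with an unadjusted limma p of 0.031 and 1 probe to rest on.

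The hnRNP proteins held both the highest mean after CCNL2 and the lowest of all members. Of 20 genes 13 were higher, with a median of 0.13. Both HNRNPDL, a relative of the AU-rich element binding protein HNRNPD, and HNRNPH2, which binds G-rich motifs, were higher in all 3 replicates. HNRNPDL read 0.71, 0.16 and 0.55 in the 3 replicates, a mean of 0.47 ± 0.28 (SD) and a 1.39-fold difference. It was higher on 5 of 6 arrays, the exception being -0.24 in replicate 2, and its 3 probes averaged 0.29 to 0.47. HNRNPH2 read 0.55, 0.12 and 0.50, also with 1 array of replicate 2 below 0 at -0.22. HNRNPR, an RNA-binding protein of pre-mRNA complexes, was higher on all 6 arrays: 0.38 and 0.58 in replicate 1, 0.01 and 0.20 in replicate 2, and 0.24 and 0.67 in replicate 3. Its mean was 0.35 ± 0.21 (SD), and its lowest array was nearly at 0. HNRNPM, which binds GU-rich sequence, was 0.81 in replicate 1 and 0.07 and 0.18 in the others, and its 4 kept probes ran from -0.07 to 0.35.

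HNRNPK and HNRNPL stood at the low end. HNRNPK, a KH-domain protein that binds C-rich RNA, read -0.47, 0.05 and -1.12, a mean of -0.52 ± 0.59 (SD). HNRNPL, which binds CA repeats and was named after its value was seen, read -0.55, 0.09 and -1.29, a mean of -0.58 ± 0.69 (SD). Both were lowest in replicate 3 and near 0 in replicate 2. At 1.43-fold lower for HNRNPK, the unadjusted limma p was 0.06.

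The U2 snRNP and branch point factors were closer to the array, with a median of 0.066 and 7 of 10 genes higher. SF3B3, a scaffold subunit of the SF3B complex, read 0.12 and 0.31 on the arrays of replicate 1, 0.14 and 0.31 in replicate 2, and 0.45 and 0.61 in replicate 3. It was higher on all 6 arrays, with a mean of 0.32 ± 0.18 (SD, n = 3), a 1.25-fold difference and an unadjusted limma p of 0.049. SF3B6, another subunit of that complex, averaged 0.28 ± 0.26 (SD) with replicate 2 at -0.001. The partners of the U2AF dimer had different values. U2AF1, which reads the AG at the end of the intron, was 0.04, -0.24 and -0.84, a mean of -0.35 ± 0.45 (SD). U2AF2, which binds the polypyrimidine tract before it, was -0.26, 0.29 and 0.02, a mean of 0.02 ± 0.27 (SD). The only U2AF1 probe was dim, with raw intensities of 115 to 378 units.

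The Sm and snRNP proteins were split evenly, with 6 of 12 genes higher and a median of -0.0022. SNRPC, the U1 snRNP protein that helps read the start of the intron, was 0.08, 0.40 and 0.62, a mean of 0.37 ± 0.27 (SD). The other kept SNRPC probe averaged 0.03, near the negative controls with raw intensities of 112 to 191 units. The Sm ring proteins SNRPD1 and SNRPD3 stood high in replicate 3 at 0.97 and 1.31. In replicate 2 they were -0.12 and -0.23, so their means of 0.39 ± 0.55 and 0.32 ± 0.87 (SD) had spreads larger than themselves. SNRPB, which encodes the ring proteins B and B′, had the widest gap between probes of any member. Its brighter probe averaged 0.0016 ± 0.19, while the dimmer was lower on all 6 arrays, at -0.23 and -0.86 in replicate 1, -0.63 and -0.32 in replicate 2, and -1.06 and -1.02 in replicate 3. That probe averaged -0.69 ± 0.31 (SD, n = 3) with an unadjusted limma p of 0.0039, and an adjusted p of 0.86. It was near the negative controls, with raw intensities of 90 to 302 units. In treated RNA it was above background on 5 arrays, and in control RNA on 6.

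The PRPF proteins, spliceosome components named after yeast pre-mRNA processing mutants, had a median of 0.037 and 6 of 10 genes higher. PRPF39, a U1 snRNP-associated factor in yeast, was 1.02 in replicate 1 and -0.10 and -0.01 in the others. PRPF4, a protein of the U4/U6 snRNP, was 0.23, -0.04 and 0.23, a mean of 0.14 ± 0.16 (SD). RBM39, a U2AF2-related splicing coactivator, was 0.33, 0.01 and -0.66. Its mean was -0.11 ± 0.51 (SD), and its 4 kept probes averaged between -0.11 and 0.01.

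Probes of one gene often disagreed in sign, though some lay near the negative controls, among them the dimmer probes of the CLK genes and SNRPB. Of the 73 genes 29 had several kept probes, and in 17 of these the probe means lay on both sides of 0 (58.6%, against 52.3% of all genes with several kept probes). In 11 genes all probes were higher, among them SRSF6, HNRNPDL and CCNL2, and in 1 gene, HNRNPK, all were lower. The dimmer HNRNPK probe averaged only -0.03, with raw intensities of 98 to 206 units. Shares by direction over all genes were not counted here, so no direction is read from the 11 and the 1.

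**Figure D3:**
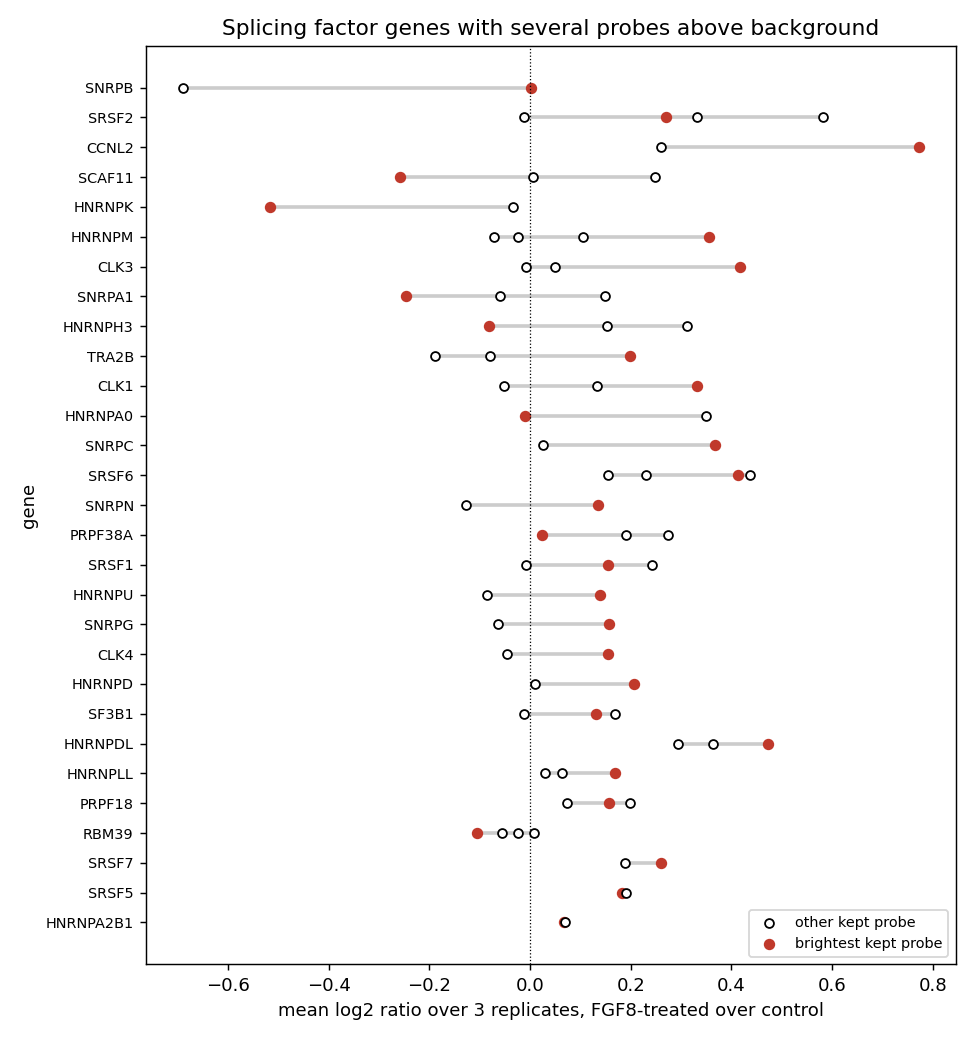
The mean log2 ratio of treated over control over 3 replicates on the horizontal axis, for every kept probe of the 29 splicing factor genes with several; the filled point is the brightest probe and open points are the others. SNRPB spans the widest range, from -0.69 to 0.0016, and SRSF6 keeps its 4 probes between 0.15 and 0.44.

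The dye exchange was read separately, because a gene that is brighter in one dye moves single arrays without a treatment effect. The limma fit of Cy5 over Cy3 called 2 of 73 member genes (2.74%), against 8.2% of all genes (4.41% brighter in Cy5 and 3.8% brighter in Cy3). HNRNPK was brighter in Cy5, with a log2 ratio of Cy5 over Cy3 of 0.37 and an adjusted p of 0.013. Its treated over control ratio averaged -0.14 where Cy5 marked the treated RNA and -0.89 where Cy3 did. SNRPC was brighter in Cy3, with a log2 ratio of Cy5 over Cy3 of -0.33 and an adjusted p of 0.028. Its treated over control ratio averaged 0.03 where Cy5 marked the treated RNA and 0.70 where Cy3 did. For both genes the mean over both orientations cancels this offset. In the fit of all 6 arrays with the replicate block 0 member genes had a called dye effect, against 5.34% of all genes. With the mean in place of the median foreground 23 had one (31.5%, against 23.7%).

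**Figure D4:**
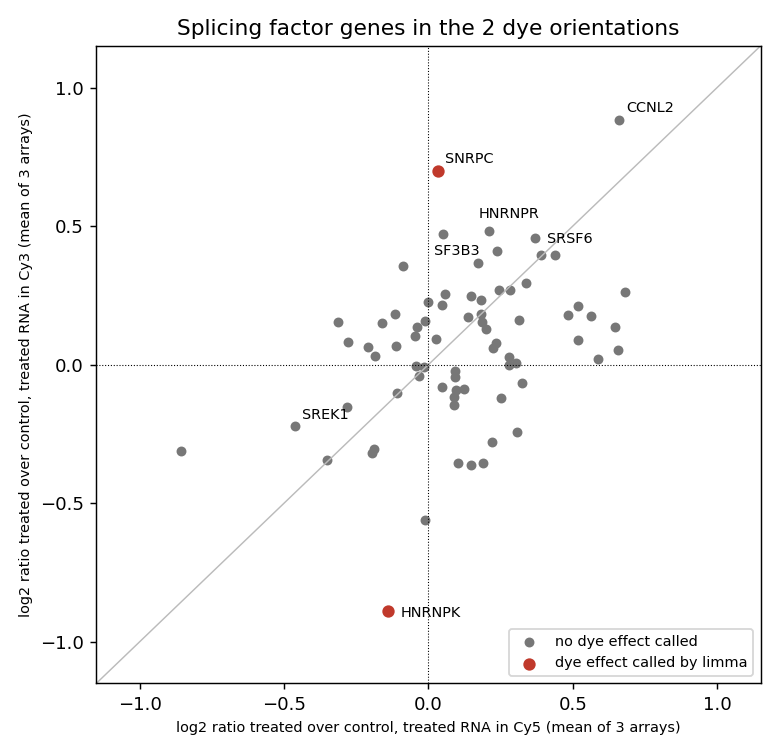
The mean log2 ratio of treated over control over the 3 arrays with treated RNA in Cy5 (horizontal axis) and over the 3 arrays with treated RNA in Cy3 (vertical axis), 1 point per splicing factor gene; the grey line marks equal values and red points are genes with a called dye effect. HNRNPK, at -0.14 and -0.89, and SNRPC, at 0.03 and 0.70, lie far from the line. CCNL2, SRSF6, HNRNPR, SF3B3 and SREK1 are labelled because they had one sign on all 6 arrays.

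Among other genes of the splicing machinery no gene was called either. In a list of other spliceosome genes 54 of 57 passed the background filter, with a median of 0.066. At an unadjusted limma p under 0.05, 2 of the 54 were higher and 1 was lower, where 3.17% of all genes were higher and 2.46% lower. DHX15, a helicase that takes the spliceosome apart, averaged 0.46 ± 0.45 (SD), and RBM22, which contacts the catalytic RNA core, 0.41 ± 0.37. LSM7, of the ring on the U6 RNA, averaged -0.42 ± 0.23 (SD), with -0.61, -0.16 and -0.49 in the 3 replicates. In a list of other splicing regulators 44 of 49 passed, with a median of 0.095. Of these 44, 5 were higher at an unadjusted p under 0.05 and 1 was lower, beside the same 3.17% and 2.46% of all genes.

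CIRBP, a cold-inducible RNA-binding protein, read 0.81, 0.21 and 0.57, a mean of 0.53 ± 0.30 (SD). DYRK1A, a kinase that also phosphorylates splicing factors, averaged 0.48 ± 0.34, and PCBP1, which binds C-rich RNA as HNRNPK does, 0.44 ± 0.24 (SD). The other two higher genes were SFPQ at 0.44 ± 0.36 and the helicase DDX5 at 0.49 ± 0.45, and the lower one was RBM3, a close relative of CIRBP, at -0.42 ± 0.33 (SD). These last 3 were named after their values were seen. None of the 9 genes named from these lists passed the adjusted threshold, with an adjusted p of 0.86 for each.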

How the data were processed

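The 6 scanner files gave spot intensities, per the file headers, as median foreground and background of Cy5 and Cy3. The authors' deposited table holds log2 ratios, which ran as treated over control on every array when set against the scanner values (r of at least 0.9999, slope 1.00). No aligner or build applies, and the array's gene names come from the platform annotation, updated through RefSeq. Spots marked as ignored in any file (143 probes, none a member) were dropped. Signals were corrected with normexp (offset 50) and loess within each array in limma 3.58.1 (R 4.3.3), with control spots at weight 0. On 1 array an ignored spot had a Cy5 foreground minus background of -64773 units and turned the normexp background estimate to -380, so dropping these spots before the fit was chosen after seeing the data. A probe was kept when its foreground exceeded the 95th percentile of the negative controls in one RNA on at least 4 of 6 arrays.

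The mean of the 2 dye-exchanged arrays was 1 replicate. lmFit and eBayes tested 3 replicate means against 0, with Benjamini-Hochberg adjustment over 27210 probes at 0.05, and the unturned means tested the dye effect. The script was tested on simulated data. Same-numbered treated and control channels share arrays and deviated together (r = 0.14, 0.41 and 0.42), though treated replicate 1 also had r = 0.13 with control replicate 2. What the numbers share beyond the arrays was not tested, and the ratio within an array keeps the pairing. The number of arrays limits the precision. Genes were named when they had one sign on all 6 arrays, had the 2 smallest p-values of a role, had the 3 widest probe gaps, dye effects or SDs, were listed by symbol in the rule, or had the 3 smallest p-values of another splicing list. Members and lists were chosen with earlier results of these data known. Alternatives covered the deposited ratios, foreground, background, scaling, filters, trend, block, dye orientation, probe averaging and left-out replicates. The deposited ratios nearly equal those from median background subtraction, so these alternatives are not separate checks.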

Additional observations from a re-analysis of the deposited data

Results flagged for a closer look

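For 2 splicing factor genes the log2 ratio of treated over control differed between the dye orientations by a test of the difference itself, the limma dye effect. For HNRNPK the ratio with treated RNA in Cy5 minus that with treated RNA in Cy3 was 0.75 (adjusted p 0.013). The lower value came with treated RNA in Cy3 in all 3 replicates. For SNRPC the same difference was -0.67 (adjusted p 0.028), and the higher value came with treated RNA in Cy3 in all 3 replicates. Both dye calls were lost in the fit of 6 arrays with the replicate block.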

How the results depend on the processing

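In all 16 alternatives 0 member genes and 0 genes of the other splicing lists passed the adjusted threshold, also with the replicate block, where 11 of all 11190 genes did. The member median stayed positive, from 0.063 without replicate 1 to 0.20 with median centring. The medians of all genes in these fits were 0.0097 and 0.037. Shares of all genes follow each count in brackets. The count of members at an unadjusted p under 0.05, 8 in the fit reported (5.63%), was 4 of 68 with the filter in both RNAs on all 6 arrays (4.78%), 5 of 73 with an intensity trend (5.06%), 10 with the replicate block (8.07%), and 1 (4.49%) to 10 (6.96%) when a replicate was left out. Without replicate 3 it was 1 (PRPF19, none of the 8), and without replicate 1 it was 5 (6.16%). One sign on every array, 5 genes in the fit reported (5.97%), held for 25 genes over the arrays with Cy5 on the treated RNA (34.7%), 19 over those with Cy3 on it (31.4%), and 10 (15.3%) to 19 (21.9%) when a replicate was left out, counts that rise because fewer arrays enter. Of the 5, 3 kept it with mean foreground, 3 with the mean of all kept probes and 4 with median centring. The dye count of 2 (8.2%) became 23 with mean foreground (23.7%), 13 with median centring (9.9%), 10 with the trend (9.99%), 0 with the replicate block (5.34%), 0 with the mean of all kept probes (6.11%), and 1 (4.31%, without replicate 2) to 3 (5.59%) when a replicate was left out; the cause was not tested. Of the 25 named members 16 kept their sign in every alternative and 9 did not (CLK1, PRPF39, RBM39, SNRPB, SNRPD3, SRSF2, TRA2A, TRA2B and U2AF2). With normexp fitted on the ignored spots as well, an alternative added after seeing the data, 8 genes had an unadjusted p under 0.05, of which 7 were shared. Low signal leaves PRPF40B and SF3B4 without a tested value wherever dim probes were filtered out. The alternative without that filter tested all 75 member genes.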
